A study of Rattus norvegicus with 16 samples.

Results

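The interferon-stimulated and antigen-processing genes examined here are 34 genes chosen by symbol from what their products are known to do, and 33 of them were analysed among the 17168 genes counted in rat liver. Xaf1, whose protein binds the apoptosis inhibitor XIAP, was not analysed here. By role the 33 genes were 3 RNA sensors, 5 signalling and feedback genes, 16 effectors, 2 guanylate-binding proteins, 2 chemokines and 5 genes of class I antigen processing. All 33 passed the filter on low counts that left 11162 genes for testing.

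The libraries came from livers of Sprague Dawley rats, either Tspo knockout (labelled tspo -/-) or wild type. The Tspo protein sits in the outer membrane of mitochondria, where it was first described as a benzodiazepine-binding site. The rats ate ordinary chow until 12 weeks of age, then either a methionine-choline deficient (MCD) diet or chow for 8 weeks, and were 20 weeks old at sampling. The MCD diet is a model of steatohepatitis, a fatty liver with inflammation, and it works by withholding nutrients needed to export fat from the liver. Knockout rats on MCD (KO-MCD), wild-type rats on MCD (WT-MCD), knockout rats on chow (KO-CHOW) and wild-type rats on chow (WT-CHOW) gave 4 libraries each, 16 in all. The labels do not say how the Tspo allele was made or whether each library is a separate animal, so p-values measure the spread between libraries. The series title speaks of mice, while every sample is labelled rat.

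Interferons are cytokines released when a cell senses foreign nucleic acid or when lymphocytes are activated. Type I interferons act through the kinases JAK1 and TYK2 and a complex that includes STAT2 and IRF9, which binds the interferon-stimulated response element (ISRE) in promoters. Interferon gamma acts mainly through promoters with the gamma-activated site (GAS), and it raises the immunoproteasome and the transporter that load peptides onto class I molecules. In liver these genes are expressed by hepatocytes as well as by macrophages, endothelium and lymphocytes.

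Promoter windows show which members carry these elements. RefSeq (assembly GRCr8) gave a window of 250 bases before to 50 bases after the gene start for 26 of the 34 genes. Those without one were Ddx58, Dhx58, Usp18, Ifit2, Isg15, Mx2, Oas2 and Rtp4. The ISRE core, searched on both strands as GAAA, any 2 bases and GAAA again, was present in 18 of the 26 windows (69.2%), against 3.92% of all 33469 windows in the RefSeq table. The GAS, searched as TTCNNNGAA, whose reverse complement is itself, was in 7 of the 26 (26.9%), against 8.87% of all windows. A kappa B core, searched on both strands as GGGA, any 2 bases and TTCC, was in 4 of the 26 (15.4%), against 1.3%. A match is a description of the letters and not of binding. Members with a window and no ISRE core were Irf1, Irf9, Stat2, Mx1, Oasl, Parp9, Cxcl9 and Psmb9. Of these, Oasl, Parp9 and Psmb9 were called between diets, as given below. The following 6 windows, each with a core, are shown because their genes carry diet results below. Of the 6, 1 is of a gene higher on MCD (Gbp5), 4 of genes lower (Bst2, Ifi27, Psmb8, Parp14) and 1 of a gene not called (Tap1). Each runs 5′ to 3′ on the strand of its gene, and capitals mark the ISRE core on either strand.
Gbp5: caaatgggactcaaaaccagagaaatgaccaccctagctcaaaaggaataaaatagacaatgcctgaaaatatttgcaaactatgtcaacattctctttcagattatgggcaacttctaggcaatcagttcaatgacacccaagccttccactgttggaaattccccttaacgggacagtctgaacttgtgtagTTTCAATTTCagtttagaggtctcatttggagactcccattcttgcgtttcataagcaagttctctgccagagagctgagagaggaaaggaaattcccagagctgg
Bst2: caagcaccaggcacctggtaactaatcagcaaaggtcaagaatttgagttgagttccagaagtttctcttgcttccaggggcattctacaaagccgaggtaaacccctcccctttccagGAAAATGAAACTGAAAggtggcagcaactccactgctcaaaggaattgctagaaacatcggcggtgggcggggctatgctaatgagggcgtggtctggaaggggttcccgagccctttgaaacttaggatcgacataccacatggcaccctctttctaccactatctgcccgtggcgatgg
Ifi27: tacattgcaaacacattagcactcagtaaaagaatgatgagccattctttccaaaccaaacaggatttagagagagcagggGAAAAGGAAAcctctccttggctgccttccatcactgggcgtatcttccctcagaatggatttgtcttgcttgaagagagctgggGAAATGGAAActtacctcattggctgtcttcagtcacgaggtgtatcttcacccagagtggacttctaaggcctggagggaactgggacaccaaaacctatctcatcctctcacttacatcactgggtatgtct
Psmb8: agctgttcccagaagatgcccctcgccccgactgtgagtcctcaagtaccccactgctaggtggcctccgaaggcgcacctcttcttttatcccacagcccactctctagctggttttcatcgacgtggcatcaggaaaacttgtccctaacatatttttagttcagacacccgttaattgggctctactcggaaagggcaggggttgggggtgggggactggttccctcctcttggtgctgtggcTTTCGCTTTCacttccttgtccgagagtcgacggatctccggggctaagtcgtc
Parp14: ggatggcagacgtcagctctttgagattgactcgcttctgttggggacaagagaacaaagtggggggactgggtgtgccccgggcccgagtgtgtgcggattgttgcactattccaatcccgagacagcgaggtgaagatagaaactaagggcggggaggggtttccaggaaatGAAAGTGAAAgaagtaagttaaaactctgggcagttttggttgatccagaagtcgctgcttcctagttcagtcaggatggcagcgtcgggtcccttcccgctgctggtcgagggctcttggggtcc
Tap1: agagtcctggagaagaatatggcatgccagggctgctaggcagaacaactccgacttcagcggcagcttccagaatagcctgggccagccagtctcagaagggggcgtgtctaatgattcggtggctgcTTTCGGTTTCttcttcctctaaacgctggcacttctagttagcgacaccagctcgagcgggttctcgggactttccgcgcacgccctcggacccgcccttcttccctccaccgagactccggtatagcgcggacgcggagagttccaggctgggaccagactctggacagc

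In GRCr8, which is not the rn6 build named for the counts, these windows lie at chr2:233910749-233911048 on the plus strand for Gbp5, chr16:18254918-18255217 on the minus strand for Bst2 and chr6:128355062-128355361 on the plus strand for Ifi27. The other windows lie at chr20:4656982-4657281 on the minus strand for Psmb8, chr11:78407884-78408183 on the plus strand for Parp14 and chr20:4668494-4668793 on the minus strand for Tap1. Each holds the promoter and the first bases of the transcript. The 2 cores of Bst2 overlap, and those of Ifi27 stand apart. Psmb8, Psmb9, Tap1, Tap2 and Tapbp all lie on chromosome 20. The windows of Tap1 and Psmb9 face opposite ways and share 44 bases, and the Tap1 core lies outside the window of Psmb9.

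Library totals were 10749769 to 15347832 counts for KO-MCD, 10931113 to 15762650 for WT-MCD, 11330033 to 12521178 for KO-CHOW and 8745756 to 12896848 for WT-CHOW. Levels are CPM, the count divided by the library total scaled by a TMM factor and brought to a common library size, which sets the bulk of genes equal between libraries. Levels of different genes cannot be ranked, since transcript lengths are not used. Tspo checks the labels, and it was at 1.02 to 4.17 CPM in KO-MCD, 7.63 to 9.34 CPM in WT-MCD, 0.656 to 4.42 CPM in KO-CHOW and 3.61 to 5.23 CPM in WT-CHOW. The libraries labelled KO-CHOW 4 (4.42 CPM) and KO-MCD 1 (4.17 CPM) lay above the other 6 labelled knockout, which held 0.656 to 1.66 CPM, and KO-CHOW 4 lay within the WT-CHOW range. These 2 libraries and WT-CHOW 4 also stood apart at the low end of the second principal component (16.1% of the variance), at -63.7, -44.2 and -33.0, while the other 13 lay between -9.1 and 43.2. Counts are therefore given with and without them.

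The members did not move as a block between diets (all 33 are shown by library in the map of levels). In the knockout 3 of 33 were higher on MCD than on chow (9.09%, against 21.9% of all genes tested) and 7 were lower (21.2%, against 18.5%). In the wild type 2 were higher (6.06%, against 18.2% of all genes) and 5 were lower (15.2%, against 15.9%). Called means an adjusted p under 0.05 in edgeR's quasi-likelihood test over all genes. The share of members called higher was thus below that of all genes in both genotypes, and the share called lower was near it. The median log2 fold of MCD over chow was 0.02 for the members and 0.041 for all genes in the knockout, and -0.05 and -0.002 in the wild type.

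**Figure D1:**
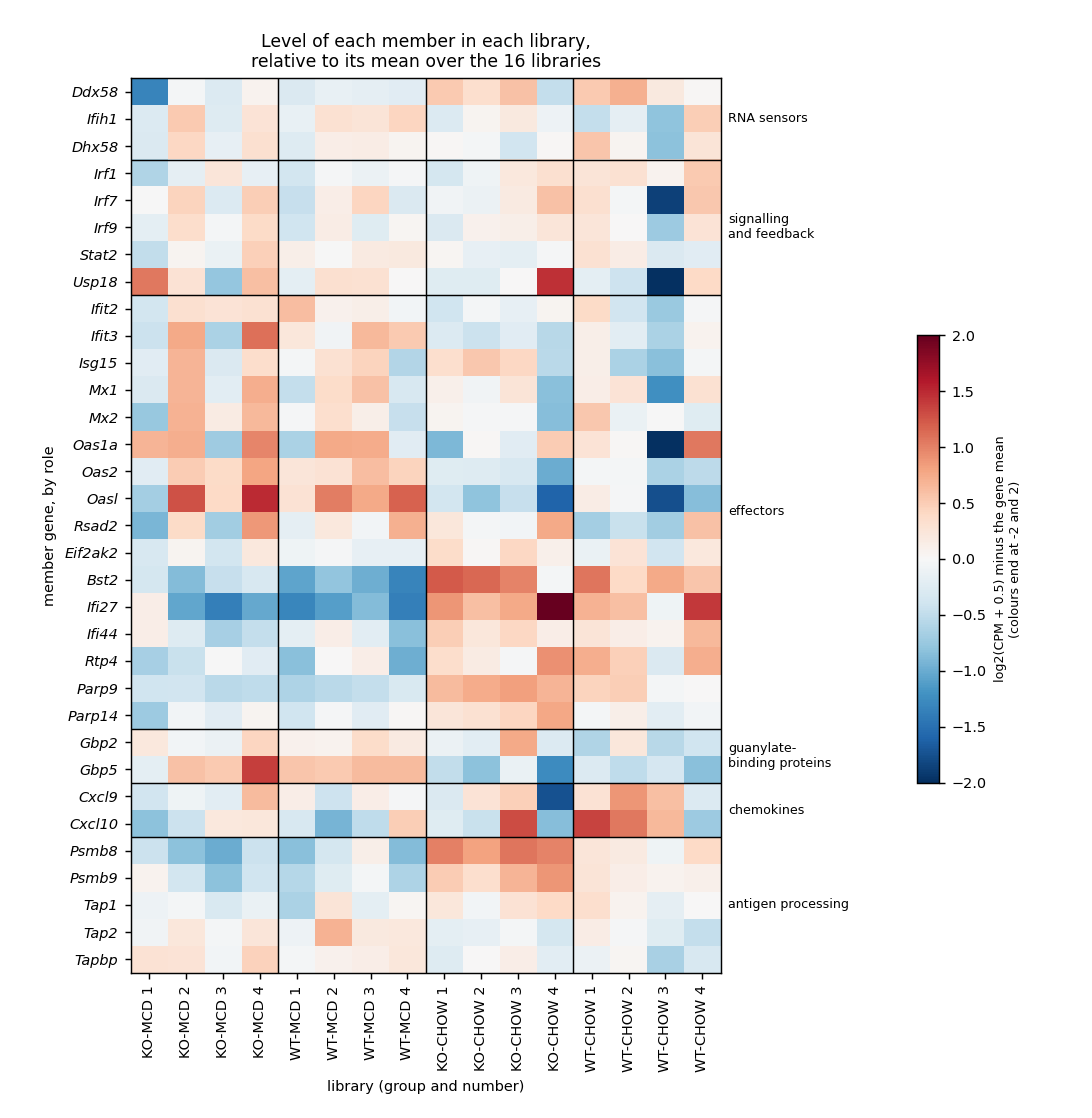
Each row is 1 member and each column 1 library, and colour gives log2(CPM + 0.5) minus the mean of that gene over the 16 libraries, red above and blue below. Bst2, Ifi27, Parp9 and Psmb8 are mostly blue in the 8 MCD libraries and red in the chow libraries, Gbp5 is mostly the reverse, and the column WT-CHOW 3 is blue in many rows.

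Oasl and Gbp5 were higher on MCD in both genotypes, which is 2 of the 3 called higher in the knockout and 2 of the 2 in the wild type. Bst2, Ifi27, Parp9 and Psmb8 were lower in both, which is 4 of 7 and 4 of 5. Oas2, Ifi44, Parp14 and Psmb9 were called in the knockout only and Rtp4 in the wild type only, but no difference between the diet effects passed its own test, given below. The other 22 members were called in neither genotype. These directions depend on the scaling, because with library totals alone, a choice added after seeing the data, the median gene moved to 0.765 in the knockout and 0.528 in the wild type. On that scale 15 members were called higher and 4 lower in the knockout, and 11 higher and 2 lower in the wild type. Of all genes 57.8% were then higher and 3.63% lower in the knockout, and 43.1% higher and 4.55% lower in the wild type. Each fold given here is thus a change against the typical gene.

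Without WT-CHOW 4, KO-CHOW 4 and KO-MCD 1 there were 5 members higher and 8 lower in the knockout, and 5 higher and 9 lower in the wild type. Calls grew for all genes too, so that 51.6% of the genes tested and 39.4% of the members were called in the knockout, and 50.5% and 42.4% in the wild type. Leaving out only KO-CHOW 4 and KO-MCD 1 gave 3 higher and 8 lower in the knockout, and 3 higher and 9 lower in the wild type, or 33.3% and 36.4% of the members, against 43.4% and 45.9% of all genes. All members called with the full set kept their call in both of these fits. With the 3 libraries left out Ifit3 and Mx2 joined those called higher in the knockout, and Ifih1, Oas2 and Rsad2 those in the wild type.

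**Figure D2:**
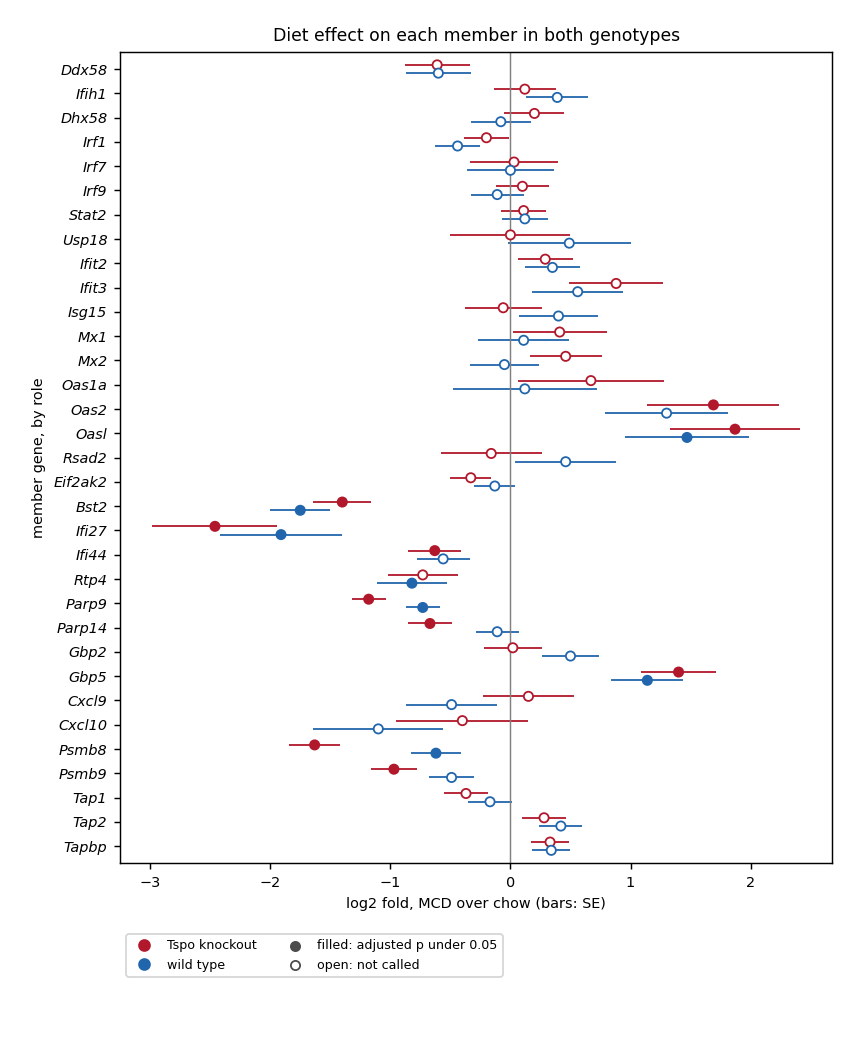
Points are log2 folds of MCD over chow with SE for the 33 members, in the knockout (red) and the wild type (blue), and filled points passed an adjusted p of 0.05. Most members sit near 0, Oasl and Gbp5 are filled right of 0 and Bst2, Ifi27, Parp9 and Psmb8 filled left of 0 in both genotypes, with TMM scaling. With library totals alone every point would move right, and Ifi44 and Parp14 of the filled knockout points would cross 0.

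Of the RNA sensors, none was called in either genotype. Ddx58 encodes RIG-I, which senses viral RNA with free triphosphate ends. Its level was 17.2, 42.5, 36.1 and 45.9 CPM in KO-MCD, against 63.0, 55.7, 65.8 and 31.2 CPM in KO-CHOW livers. It was 35.6, 39.6, 38.8 and 37.4 CPM in WT-MCD, against 63.0, 72.3, 49.99 and 44.4 CPM in WT-CHOW livers. The ranges overlapped in the knockout through the KO-CHOW 4 library and did not overlap in the wild type. The log2 folds of MCD over chow were -0.61 ± 0.27 (adjusted p = 0.0839) and -0.60 ± 0.27 (adjusted p = 0.0953). Without KO-CHOW 4 and KO-MCD 1 Ddx58 was called lower in both genotypes. Ifih1, which encodes the long-RNA sensor MDA5, averaged 21.0 ± 5.96 CPM in KO-MCD against 19.3 ± 2.71 CPM in KO-CHOW, and 22.9 ± 3.85 CPM in WT-MCD against 17.4 ± 7.29 CPM in WT-CHOW (mean ± SD, n = 4 libraries per group here and below). Dhx58, whose product LGP2 tunes both sensors, averaged 9.23 ± 2.27 CPM in KO-MCD against 8.05 ± 1.09 CPM in KO-CHOW, and 8.75 ± 1.13 CPM in WT-MCD against 9.18 ± 3.43 CPM in WT-CHOW.

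The signalling and feedback genes were likewise not called in either genotype. Their log2 folds ran from -0.20 to 0.11 in the knockout and from -0.44 to 0.49 in the wild type. Stat2 and Irf9 encode partners in the complex that binds the ISRE. Stat2 averaged 65.7 ± 18.8 CPM in KO-MCD against 61.0 ± 4.72 CPM in KO-CHOW, and 70.6 ± 4.44 CPM in WT-MCD against 64.8 ± 13.1 CPM in WT-CHOW. Irf9 averaged 14.7 ± 2.92 CPM in KO-MCD against 13.8 ± 2.17 CPM in KO-CHOW, and 12.4 ± 2.19 CPM in WT-MCD against 13.3 ± 3.85 CPM in WT-CHOW. For both genes the means of the diets differed by less than the larger of their 2 SDs. Irf1, a transcription factor of the gamma interferon response, had the lowest folds of the role, at -0.20 ± 0.19 (adjusted p = 0.416) in the knockout and -0.44 ± 0.19 (adjusted p = 0.0865) in the wild type. Its 4 WT-MCD libraries, at 13.6 to 17.4 CPM, lay below the 4 WT-CHOW libraries, at 18.5 to 25.5 CPM. Irf7, which amplifies type I interferon, had ranges of 12.4 to 21.3 CPM in KO-MCD and 13.8 to 23.0 CPM in KO-CHOW, and of 10.8 to 20.4 CPM in WT-MCD and 3.76 to 22.2 CPM in WT-CHOW. Usp18, which removes ISG15 from proteins and dampens the receptor, ranged over 5.09 to 19.3 CPM in KO-MCD and 7.50 to 25.8 CPM in KO-CHOW, and over 7.80 to 11.4 CPM in WT-MCD and 1.30 to 12.1 CPM in WT-CHOW. For both genes 1 library set an end of a chow range, WT-CHOW 3 being lowest for each and KO-CHOW 4 highest.

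The effectors split by direction. Oas2 and Oasl belong to the oligoadenylate synthetase family, whose members are activated by double-stranded RNA, though Oasl lacks the enzyme activity in human. Oas2 was at 0.348, 0.916, 0.800 and 1.21 CPM in KO-MCD, against 0.341, 0.328, 0.297 and 0 CPM in KO-CHOW livers. In the wild type it was at 0.681, 0.718, 1.03 and 0.848 CPM on MCD, against 0.464, 0.465, 0.144 and 0.190 CPM on chow. No library overlapped between diets in either genotype, but the chow counts were 0 to 3 reads in the knockout and 1 to 5 in the wild type. A count of 0 allows 3 counts, which was 0.141 to 0.433 CPM over the libraries, counting error only. Its log2 fold of MCD over chow was 1.69 ± 0.55 (adjusted p = 0.0225) in the knockout and 1.30 ± 0.51 (adjusted p = 0.0600) in the wild type. The knockout call was lost without KO-MCD 2 (adjusted p = 0.0522), KO-MCD 4 (0.0743) or KO-CHOW 4 (0.0512), over adjusted p-values of 0.00719 to 0.0743 when each library was left out.

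Oasl had 1.46, 7.10, 3.64 and 8.39 CPM in KO-MCD, against 1.93, 1.31, 1.78 and 0.535 CPM in KO-CHOW livers. The wild type had 3.33, 5.88, 4.85 and 6.64 CPM on MCD, against 2.97, 2.60, 0.433 and 1.24 CPM on chow. The MCD libraries lay above the chow libraries except KO-MCD 1, which lay within the KO-CHOW range. The log2 folds were 1.87 ± 0.54 (adjusted p = 0.0127) in the knockout and 1.47 ± 0.52 (adjusted p = 0.0388) in the wild type. The wild-type call was lost without WT-MCD 2, 3 or 4 or WT-CHOW 3 or 4, at adjusted p-values of 0.0580 to 0.0978, and with the replicate number as a block (0.0560). Oasl and Oas2 belong to families of close copies that can share reads, so their single values are uncertain.

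Bst2 encodes tetherin, a membrane protein that holds budding virus particles on the cell and also marks plasmacytoid dendritic cells. It was at 121, 84.3, 112 and 124 CPM in KO-MCD, against 361, 342, 307 and 149.5 CPM in KO-CHOW livers. Wild-type livers had 74.2, 89.4, 78.1 and 61.6 CPM on MCD, against 326, 204, 261 and 227 CPM on chow. Every MCD library lay below every chow library of its genotype, although KO-CHOW 4 was far below the other 3 of its group. The log2 fold was -1.40 ± 0.24 (adjusted p = 4.70e-04) in the knockout and -1.75 ± 0.25 (adjusted p = 1.02e-04) in the wild type. Both calls held in all 27 alternative fits, library totals included. The other markers of plasmacytoid dendritic cells tested, Tcf4 and Runx2, summed to 4.59 to 6.24 CPM in KO-MCD against 2.14 to 4.66 CPM in KO-CHOW, and 4.39 to 6.79 CPM in WT-MCD against 2.47 to 4.18 CPM in WT-CHOW. Neither is particular to those cells, and their part in the Bst2 levels was not tested.

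Ifi27 encodes a small mitochondrial protein induced by type I interferon. Its levels were 329, 145, 116 and 147 CPM in KO-MCD, against 554, 453, 507 and 2528 CPM in KO-CHOW livers. They were 121, 139, 164 and 116 CPM in WT-MCD, against 487, 454, 282 and 803 CPM in WT-CHOW livers. Diets did not overlap within either genotype, and KO-CHOW 4 and KO-MCD 1 were each far above the other 3 libraries of their group. The log2 fold was -2.46 ± 0.52 (adjusted p = 0.00191) in the knockout and -1.91 ± 0.51 (adjusted p = 0.00993) in the wild type. Without KO-CHOW 4 the knockout fold was -1.45 (adjusted p = 0.00434), and without KO-CHOW 4 and KO-MCD 1 together it was -1.89 (adjusted p = 1.45e-04). Ifi27 has close relatives in the rat, so reads may be shared.

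Parp9 and Parp14 encode ADP-ribosyltransferases of the interferon response, and Parp9 works with the ubiquitin ligase DTX3L. Parp9 was at 60.3, 60.5, 54.5 and 55.8 CPM in KO-MCD, against 123, 133, 140.4 and 127 CPM in KO-CHOW livers. Wild-type values were 51.4, 54.6, 57.1 and 63.8 CPM on MCD, against 108, 112, 77.1 and 79.5 CPM on chow. The diets did not overlap in either genotype, and the log2 folds were -1.18 ± 0.14 (adjusted p = 2.54e-05) in the knockout and -0.73 ± 0.14 (adjusted p = 0.00133) in the wild type. With library totals alone the wild-type value was -0.21 (adjusted p = 0.379). Parp9 overlaps Dtx3l in the RefSeq annotation, and the sources used here do not say whether counting used strand, so their reads cannot be told apart. Parp14 was at 44.2, 70.6, 62.7 and 76.1 CPM in KO-MCD, against 87.0, 91.0, 98.9 and 126 CPM in KO-CHOW livers. Its wild-type levels were 55.6, 72.3, 62.4 and 74.1 CPM on MCD, against 71.0, 79.8, 63.1 and 70.5 CPM on chow. The knockout groups did not overlap and the wild-type groups did, with log2 folds of -0.67 ± 0.18 (adjusted p = 0.00772) and -0.11 ± 0.18 (adjusted p = 0.668). With library totals alone the knockout value was 0.08 (adjusted p = 0.756), so its direction flipped with the scaling, and without KO-CHOW 4 and KO-MCD 1 it was -0.40 (adjusted p = 0.0323).

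Rtp4, a chaperone of membrane receptors that can inhibit viral replication in mouse, was at 13.8, 16.2, 22.1 and 18.9 CPM in KO-MCD, against 28.6, 25.0, 21.8 and 42.3 CPM in KO-CHOW livers. In the wild type it was at 12.3, 22.4, 24.4 and 11.1 CPM on MCD, against 37.2, 31.1, 18.1 and 37.1 CPM on chow. The groups overlapped in both genotypes, at log2 folds of -0.73 ± 0.29 (adjusted p = 0.0571) in the knockout and -0.82 ± 0.29 (adjusted p = 0.0398) in the wild type. The wild-type call was lost without WT-MCD 1 or 4 or WT-CHOW 1, 2 or 4 (adjusted p = 0.0684 to 0.121), with the 8 wild-type libraries alone (0.0545), with the replicate block (0.0649) and with library totals alone (0.397). Rtp4 overlaps Masp1, a complement protease gene of the liver, in the RefSeq annotation, so reads of both cannot be told apart without the strand setting. Ifi44, a cytoplasmic interferon-induced protein, averaged 12.4 ± 3.17 CPM in KO-MCD against 19.1 ± 2.21 CPM in KO-CHOW, and 12.8 ± 3.43 CPM in WT-MCD against 18.7 ± 3.67 CPM in WT-CHOW. Its knockout fold of -0.63 ± 0.22 (adjusted p = 0.0317) flipped to 0.08 (adjusted p = 0.779) with library totals alone, and the call was lost with upper quartile factors (0.0629) and without KO-MCD 2, 3 or 4 or KO-CHOW 1 or 3 (0.0634 to 0.0966).

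The other 8 effectors were called in neither genotype, and they include the best-known antiviral genes. Isg15, the ubiquitin-like protein attached to newly made proteins, averaged 6.08 ± 2.16 CPM in KO-MCD against 6.35 ± 1.96 CPM in KO-CHOW, and 5.62 ± 1.77 CPM in WT-MCD against 4.22 ± 1.45 CPM in WT-CHOW. Ifit3 and Ifit2 encode proteins of the family that binds foreign RNA ends. Ifit3 had the largest fold of these 8 in the knockout, 0.88 ± 0.39 (adjusted p = 0.0785), at 2.09, 5.38, 1.75 and 6.96 CPM in KO-MCD against 2.38, 2.08, 2.48 and 1.87 CPM in KO-CHOW livers. Its KO-MCD libraries 2 and 4 were above all chow libraries and 1 and 3 were not. Ifit2 averaged 40.8 ± 8.48 CPM in KO-MCD against 33.3 ± 4.41 CPM in KO-CHOW, and 42.3 ± 9.28 CPM in WT-MCD against 33.1 ± 11.2 CPM in WT-CHOW.

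Mx1 and Mx2 encode dynamin-like GTPases that trap viral ribonucleoproteins. Mx1 averaged 5.93 ± 2.37 CPM in KO-MCD against 4.44 ± 1.45 CPM in KO-CHOW, and 5.10 ± 1.95 CPM in WT-MCD against 4.65 ± 1.97 CPM in WT-CHOW. Mx2 averaged 28.0 ± 11.1 CPM in KO-MCD against 20.3 ± 5.26 CPM in KO-CHOW, and 23.2 ± 5.22 CPM in WT-MCD against 24.1 ± 6.44 CPM in WT-CHOW. For neither did the diets part the libraries. Oas1a, an RNA-activated synthetase with several near-identical copies in the rat, ranged over 2.76 to 10.05 CPM in KO-MCD against 2.38 to 7.09 CPM in KO-CHOW, and over 2.95 to 8.55 CPM in WT-MCD against 0.144 to 10.6 CPM in WT-CHOW. Rsad2, whose product viperin makes a chain-terminating nucleotide, averaged 5.12 ± 3.19 CPM in KO-MCD against 5.81 ± 1.82 CPM in KO-CHOW, and 5.61 ± 1.77 CPM in WT-MCD against 4.07 ± 2.25 CPM in WT-CHOW. Eif2ak2 encodes PKR, the kinase that halts translation on double-stranded RNA. Its mean was 25.3 ± 5.16 CPM in KO-MCD against 31.7 ± 4.23 CPM in KO-CHOW, and 24.9 ± 1.17 CPM in WT-MCD against 27.2 ± 5.67 CPM in WT-CHOW, and it overlaps an unnamed gene in the RefSeq annotation.

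Guanylate-binding proteins are large GTPases that act on intracellular pathogens, and Gbp5 also promotes inflammasome assembly in mouse. Gbp5 was at 5.28, 9.45, 9.09 and 16.9 CPM in KO-MCD, against 4.20, 3.28, 5.55 and 2.28 CPM in KO-CHOW livers. In the wild type its values were 9.24, 9.07, 9.83 and 9.80 CPM on MCD, against 5.01, 4.18, 4.77 and 3.23 CPM on chow. The wild-type diets did not overlap, and in the knockout KO-MCD 1 lay below KO-CHOW 3. The log2 folds were 1.40 ± 0.31 (adjusted p = 0.00233) in the knockout and 1.14 ± 0.30 (adjusted p = 0.00928) in the wild type, and both calls held in all 27 alternative fits. Gbp2 averaged 14.0 ± 2.55 CPM in KO-MCD against 13.7 ± 5.36 CPM in KO-CHOW, and 14.5 ± 1.49 CPM in WT-MCD against 10.3 ± 3.12 CPM in WT-CHOW, and was not called. Gbp copies can share reads, so both values are uncertain.

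Cxcl9 and Cxcl10 encode chemokines that draw T cells bearing CXCR3, and neither was called. Cxcl10 was at 1.67, 2.35, 3.93 and 3.98 CPM in KO-MCD, against 2.73, 2.30, 8.91 and 1.61 CPM in KO-CHOW livers. It was at 2.57, 1.50, 2.18 and 4.85 CPM in WT-MCD, against 9.27, 7.44, 5.49 and 1.81 CPM in WT-CHOW livers. All 4 groups overlapped, with log2 folds of -0.40 ± 0.55 (adjusted p = 0.574) in the knockout and -1.10 ± 0.54 (adjusted p = 0.123) in the wild type. Cxcl10 overlaps Art3 in the RefSeq annotation. Cxcl9 averaged 7.69 ± 2.81 CPM in KO-MCD against 6.87 ± 3.82 CPM in KO-CHOW, and 7.30 ± 1.27 CPM in WT-MCD against 10.3 ± 3.46 CPM in WT-CHOW. Without the 3 libraries that stood apart both chemokines were called lower on MCD in the wild type.

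Antigen processing also split, with both proteasome subunits lower on MCD in the knockout, Psmb8 also in the wild type, and the transporter and tapasin not called. Psmb8 and Psmb9 encode catalytic subunits that replace constitutive ones to form the immunoproteasome. Psmb8 was at 47.3, 35.7, 31.7 and 47.0 CPM in KO-MCD, against 128, 112, 134 and 127 CPM in KO-CHOW livers. In the wild type it was at 35.4, 50.01, 69.4 and 34.8 CPM on MCD, against 75.1, 72.1, 60.1 and 84.1 CPM on chow. The knockout diets were far apart, while in the wild type the WT-MCD 3 library reached into the chow range. Log2 folds were -1.63 ± 0.21 (adjusted p = 4.70e-05) in the knockout and -0.62 ± 0.21 (adjusted p = 0.0314) in the wild type. The wild-type call was lost without WT-MCD 1, 2 or 4 or WT-CHOW 1, 2 or 4 (adjusted p = 0.0557 to 0.104), with the 8 wild-type libraries alone (0.0537), with the replicate block (0.0516) and with library totals (0.732).

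Psmb9 was at 40.2, 29.8, 21.5 and 29.0 CPM in KO-MCD, against 54.6, 48.9, 61.6 and 71.7 CPM in KO-CHOW livers. The wild-type levels were 25.6, 32.6, 37.6 and 25.0 CPM on MCD, against 46.0, 42.4, 40.5 and 41.3 CPM on chow. No MCD library reached a chow library of its genotype. The log2 folds were -0.97 ± 0.19 (adjusted p = 0.00105) in the knockout and -0.49 ± 0.19 (adjusted p = 0.0537) in the wild type. On library totals alone the knockout value was -0.25 (adjusted p = 0.262). Tap1 and Tap2 encode the paired subunits of the transporter that carries peptides into the endoplasmic reticulum, and Tapbp encodes tapasin, which ties it to class I molecules. Tap1 was at 24.1, 25.2, 20.7 and 23.5 CPM in KO-MCD, against 30.2, 24.8, 31.6 and 34.1 CPM in KO-CHOW livers, and its wild-type means were 24.1 ± 6.24 CPM on MCD and 27.2 ± 4.13 CPM on chow. Its log2 folds were -0.37 ± 0.18 (adjusted p = 0.115) and -0.17 ± 0.18 (adjusted p = 0.473). Tap2 averaged 36.2 ± 4.29 CPM in KO-MCD against 29.9 ± 2.56 CPM in KO-CHOW, and 41.2 ± 9.92 CPM in WT-MCD against 30.9 ± 5.78 CPM in WT-CHOW. Tapbp averaged 43.4 ± 6.38 CPM in KO-MCD against 34.5 ± 4.54 CPM in KO-CHOW, and 39.1 ± 3.12 CPM in WT-MCD against 30.7 ± 6.20 CPM in WT-CHOW. Tap1 and Psmb9, whose windows share 44 bases, thus differed in call in the knockout, with no test of that difference.

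**Figure D3:**
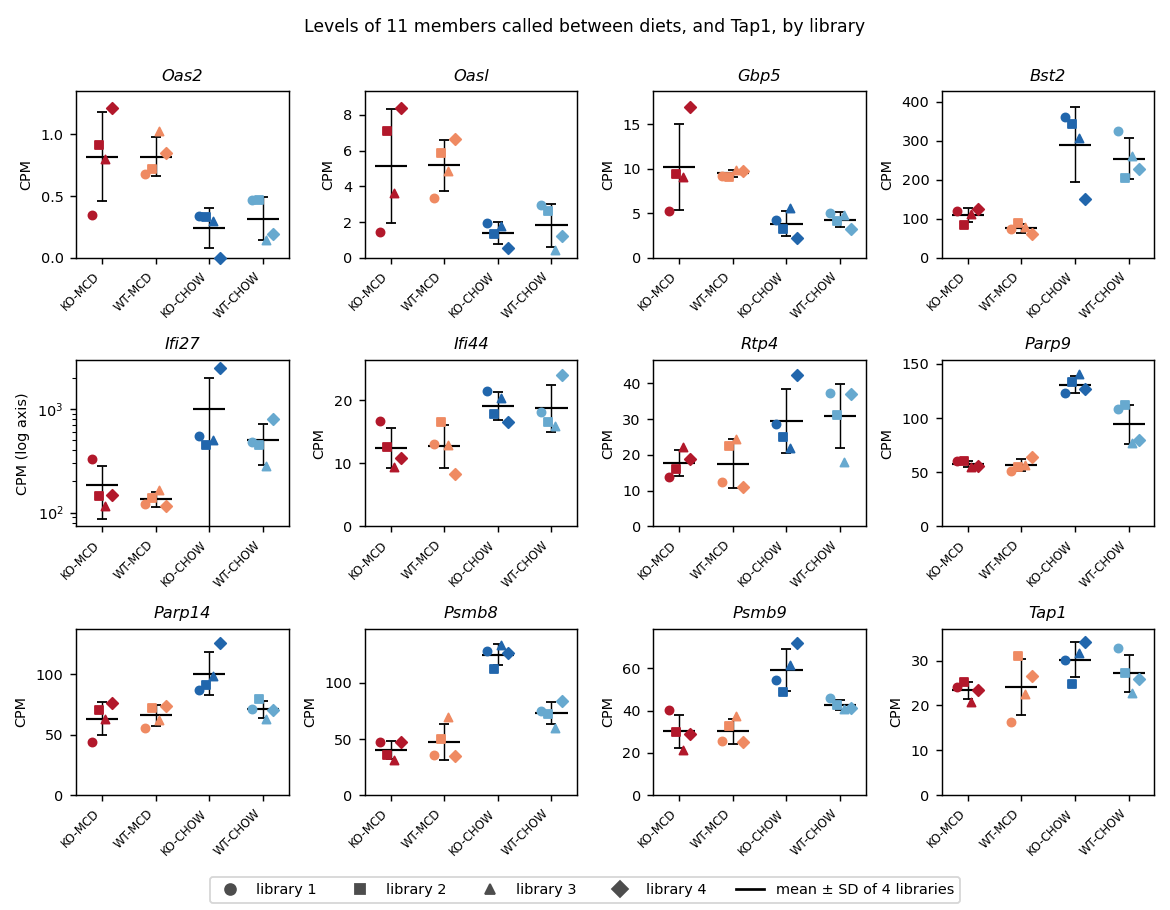
Points are CPM in single libraries (shape gives the library number), with mean and SD of 4, for the 11 members called between diets in either genotype and Tap1. The axis of Ifi27 is logarithmic and cuts off the lower SD bar of KO-CHOW, whose SD (1013 CPM) passes its mean (1011 CPM). Parp9 and Psmb9 part the diets completely in both genotypes, while Rtp4 and Ifi44 overlap.

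Members with an ISRE core were called in both directions. Of the 17 tested members with a core in the window, 1 was higher on MCD, 5 lower and 11 not called in the knockout, and 1 was higher, 3 lower and 13 not called in the wild type. Of the 8 tested members with a window and no core, 1 was higher, 2 lower and 5 not called in the knockout, and 1 was higher, 1 lower and 6 not called in the wild type. Of all genes tested 21.9% were higher and 18.5% lower in the knockout, so these small counts do not set either group apart. Of the 5 members with 2 cores, Bst2 and Ifi27 were lower in both genotypes, Ifi44 was lower in the knockout, and Oas1a and Tapbp were not called.

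Interferon transcripts themselves were barely detectable at this depth. The 6 interferon genes in the table (Ifna1, Ifna2, Ifna4, Ifnb1, Ifng and Ifnk, of 9 listed) summed to 7 counts among 196407392 in the 16 libraries. Of the receptor genes, 2 of 5 tested were higher on MCD in both genotypes and none was lower. Of all genes tested 21.9% were higher in the knockout and 18.2% in the wild type. Ifnar1, a chain of the type I receptor, averaged 39.3 ± 4.50 CPM in KO-MCD against 24.6 ± 4.43 CPM in KO-CHOW, with a log2 fold of 0.68 ± 0.15 (adjusted p = 0.00297). Ifngr1, the binding chain of the gamma receptor, averaged 39.1 ± 6.76 CPM in KO-MCD against 19.5 ± 6.18 CPM in KO-CHOW, with a log2 fold of 1.00 ± 0.24 (adjusted p = 0.00411). In the wild type the folds were 0.65 ± 0.15 (adjusted p = 0.00473) for Ifnar1 and 0.82 ± 0.24 (adjusted p = 0.0149) for Ifngr1.

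Other genes of the pathway, from lists chosen with earlier results of these data known, gave the following counts. For comparison, 21.9% of all genes were higher and 18.5% lower in the knockout, and 18.2% and 15.9% in the wild type. Of 13 kinases, transcription factors and feedback genes 4 were higher and 1 lower in each genotype. Stat3, which also drives the acute phase response, averaged 144 ± 15.3 CPM in WT-MCD against 63.2 ± 5.94 CPM in WT-CHOW, with a log2 fold of 1.19 ± 0.19 (adjusted p = 3.23e-04). Irf3, the factor that first induces interferon, averaged 57.4 ± 13.9 CPM in KO-MCD against 123 ± 23.0 CPM in KO-CHOW, at -1.10 ± 0.24 (adjusted p = 0.00217). Of 10 nucleic acid sensing genes 6 were higher and 1 lower in the knockout, and 3 higher and 2 lower in the wild type. Traf3, an adaptor downstream of the sensors, averaged 32.2 ± 6.84 CPM in KO-MCD against 12.8 ± 1.31 CPM in KO-CHOW, at 1.33 ± 0.16 (adjusted p = 2.45e-05). Trim25, the ubiquitin ligase that activates RIG-I, was at 26.5 ± 8.81 CPM in KO-MCD against 11.2 ± 0.648 CPM in KO-CHOW, at 1.24 ± 0.20 (adjusted p = 2.93e-04).

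Of 42 other interferon-stimulated genes 7 were higher and 7 lower in the knockout (16.7% each, against 21.9% and 18.5% of all genes). In the wild type 8 were higher and 7 lower (19.0% and 16.7%, against 18.2% and 15.9% of all genes). The shares were near those of all genes and about equal in each direction. Tnfsf10, the death ligand TRAIL, averaged 4.73 ± 1.10 CPM in KO-MCD against 0.870 ± 0.354 CPM in KO-CHOW, at 2.40 ± 0.32 (adjusted p = 4.98e-05). Cmpk2, a mitochondrial nucleotide kinase, averaged 6.32 ± 0.699 CPM in WT-MCD against 2.05 ± 0.812 CPM in WT-CHOW, at 1.59 ± 0.27 (adjusted p = 5.08e-04). Dtx3l, the Parp9 partner, averaged 35.7 ± 1.86 CPM in KO-MCD against 80.7 ± 15.0 CPM in KO-CHOW, at -1.18 ± 0.17 (adjusted p = 1.01e-04). Igtp and Irgm, immunity-related GTPases of the gamma interferon response, were lower in both genotypes. Igtp averaged 34.5 ± 2.00 CPM in KO-MCD against 82.9 ± 15.0 CPM in KO-CHOW, and 32.5 ± 6.74 CPM in WT-MCD against 65.3 ± 13.0 CPM in WT-CHOW. On library totals alone the wider list gave 23 higher and 1 lower in the knockout, and 16 higher and 1 lower in the wild type. Of all genes 57.8% were then higher in the knockout and 43.1% in the wild type. On that scale the calls were lost for Irf3 and Dtx3l in the knockout, for Igtp in the wild type and for Irgm in both.

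Of 28 genes of MHC class I and peptide loading, 13 (46.4%) were lower and 0 higher in the knockout. In the wild type 10 (35.7%) were lower and 1 higher. Of all genes 18.5% and 15.9% were lower. The list is wider than the class I genes. Its counts of lower genes include Psmb5, Psmb6, Psmb7, Pomp, Calr and Pdia3 in both genotypes. With library totals alone 0 were lower in either genotype, and 8 were higher in the knockout and 12 in the wild type. On that scale 57.8% and 43.1% of all genes were higher. With TMM scaling the RT1 (class I) genes called lower were RT1-N3, RT1-S3 and RT1-A1 in the knockout and RT1-S3 in the wild type. RT1-CE1 was called higher in the wild type, and the other RT1 genes were not called. The list's median log2 fold was -0.49 in the knockout and -0.10 in the wild type, against 0.041 and -0.002 for all genes. B2m, the invariant chain of class I, averaged 1099 ± 199 CPM in KO-MCD against 2220 ± 170.1 CPM in KO-CHOW, at -1.01 ± 0.18 (adjusted p = 5.51e-04), and the wild type gave -0.80 ± 0.18 (adjusted p = 0.00331). Psme1, an activator of the proteasome, averaged 106 ± 15.1 CPM in KO-MCD against 169 ± 13.9 CPM in KO-CHOW, at -0.68 ± 0.13 (adjusted p = 8.75e-04), and its direction flipped to 0.05 with library totals. Pomp, a proteasome assembly factor, was lower too, at -0.76 ± 0.17 (adjusted p = 0.00265) in the knockout and -0.85 ± 0.17 (adjusted p = 0.00144) in the wild type. The list holds the constitutive subunits Psmb5, Psmb6 and Psmb7, whose places Psmb8, Psmb9 and Psmb10 take in the immunoproteasome. Those constitutive subunits were lower in both genotypes with TMM scaling and in neither with library totals.

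Some cell type markers moved with the diet, while macrophage markers went both ways and the T and NK cell sums overlapped between diets. The marker counts stand against 21.9% of all genes higher and 18.5% lower in the knockout, and 18.2% and 15.9% in the wild type. Marker counts and summed levels use TMM scaling, with factors of 1.14 to 1.35 in MCD libraries and 0.644 to 1.00 in chow libraries. With library totals alone the median gene moved to 0.765 in the knockout and 0.528 in the wild type. Falls on MCD would then be smaller and rises larger. Of 7 hepatocyte markers 6 were lower on MCD in both genotypes, and their summed level was 79089 to 91550 CPM in KO-MCD against 160396 to 205959 CPM in KO-CHOW, and 72397 to 108191 CPM in WT-MCD against 148931 to 179927 CPM in WT-CHOW. All 4 red blood cell markers tested were lower in both genotypes. Of 14 macrophage markers 5 were higher and 3 lower in the knockout, and 5 higher and 2 lower in the wild type. Of 13 T and NK cell markers tested (19 in the table) 1 was higher and 3 lower in the knockout, and 1 higher and 2 lower in the wild type. Their summed level was 33.3 to 46.8 CPM in KO-MCD, 35.2 to 46.8 CPM in WT-MCD, 34.6 to 44.5 CPM in KO-CHOW and 27.0 to 37.9 CPM in WT-CHOW, with Klrb1 at 0 in all libraries. Bile duct markers gave 72.7 to 114 CPM in KO-MCD against 16.2 to 29.9 CPM in KO-CHOW, and 69.6 to 127 CPM in WT-MCD against 16.3 to 36.1 CPM in WT-CHOW. The part of these shifts in the members' levels was not tested. Fewer cells of a type and less RNA per cell cannot be told apart in whole liver.

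The knockout was set against the wild type on each diet to ask what loss of Tspo did. On MCD 0 of 33 members were called in either direction (0% higher and 0% lower among all genes tested). Tspo itself was not called either, at -2.07 ± 0.45 on MCD (unadjusted p = 2.90e-04 in edgeR), where its groups did not overlap. On chow Tspo was at -1.23 ± 0.49 (adjusted p = 0.460). A count of 0 in these comparisons therefore does not show that no gene differed. At an unadjusted p under 0.05 edgeR gave 1 member, and DESeq2 and limma also called 0. The 1 member under 0.05 was Bst2, at 121, 84.3, 112 and 124 CPM in KO-MCD, against 74.2, 89.4, 78.1 and 61.6 CPM in WT-MCD livers. KO-MCD 2 lay within the wild-type range and the other 3 above all 4 wild-type libraries, at a log2 fold of 0.54 ± 0.24 (adjusted p = 1.00). The next smallest p was that of Irf9, at 11.6, 17.1, 12.9 and 17.4 CPM in KO-MCD, against 9.99, 14.8, 11.2 and 13.6 CPM in WT-MCD livers. The groups overlapped, at 0.25 ± 0.22 (adjusted p = 1.00). Log2 folds of the 33 members ran from -0.23 to 0.54 with a median of 0.03, against 0.002 for all genes. The 95% interval for Stat2 was -0.50 to 0.29, for Isg15 -0.55 to 0.80 and for Oas1a -0.95 to 1.52.

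On chow 0 members were called in either direction either (0% of all genes higher and 0.00896% lower), with 4 at an unadjusted p under 0.05 in edgeR and 0 called by DESeq2 or limma. DESeq2 called 23 of all genes. Without WT-CHOW 4 edgeR called 17 of all genes, and without KO-CHOW 4 and KO-MCD 1 as well it called 516 (1.81% higher and 2.79% lower), while 0 members were called in either fit. The 4 members under 0.05 were Psmb8, Parp9, Parp14 and Psmb9, and in each all 4 KO-CHOW libraries lay above all 4 WT-CHOW libraries. That is 12.1% of the members, against 1.75% of all genes parted this way and 2.59% parted the other way, where no member was. Parp9 and Parp14 both lie on chromosome 11, and Psmb8 and Psmb9 on chromosome 20. Whether the 4 genes vary separately was not tested. The adjusted p-values do not pass, so these differences are given as values.

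Psmb8 was at 128, 112, 134 and 127 CPM in KO-CHOW, against 75.1, 72.1, 60.1 and 84.1 CPM in WT-CHOW livers. The lowest knockout library stood well above the highest wild-type library, at a log2 fold of 0.78 ± 0.21 (adjusted p = 0.395). Parp9 was at 123, 133, 140.4 and 127 CPM in KO-CHOW, against 108, 112, 77.1 and 79.5 CPM in WT-CHOW livers, at 0.48 ± 0.14 (adjusted p = 0.435). Without WT-CHOW 4, KO-CHOW 4 and KO-MCD 1 the folds were 0.85 (adjusted p = 0.0509) for Psmb8 and 0.42 (adjusted p = 0.0861) for Parp9, over adjusted p-values of 0.0509 to 0.744 and 0.0861 to 0.729 in all alternatives. Parp14 averaged 101 ± 17.5 CPM in KO-CHOW and 71.1 ± 6.81 CPM in WT-CHOW, at 0.50 ± 0.18 (adjusted p = 0.459). Psmb9 averaged 59.2 ± 9.84 CPM in KO-CHOW and 42.5 ± 2.44 CPM in WT-CHOW, at 0.48 ± 0.19 (adjusted p = 0.459). On library totals alone the folds were 0.23 for Parp9, 0.24 for Parp14 and 0.22 for Psmb9. KO-CHOW 4, with Tspo at a wild-type level, was the highest of its group for Parp14 and Psmb9.

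**Figure D4:**
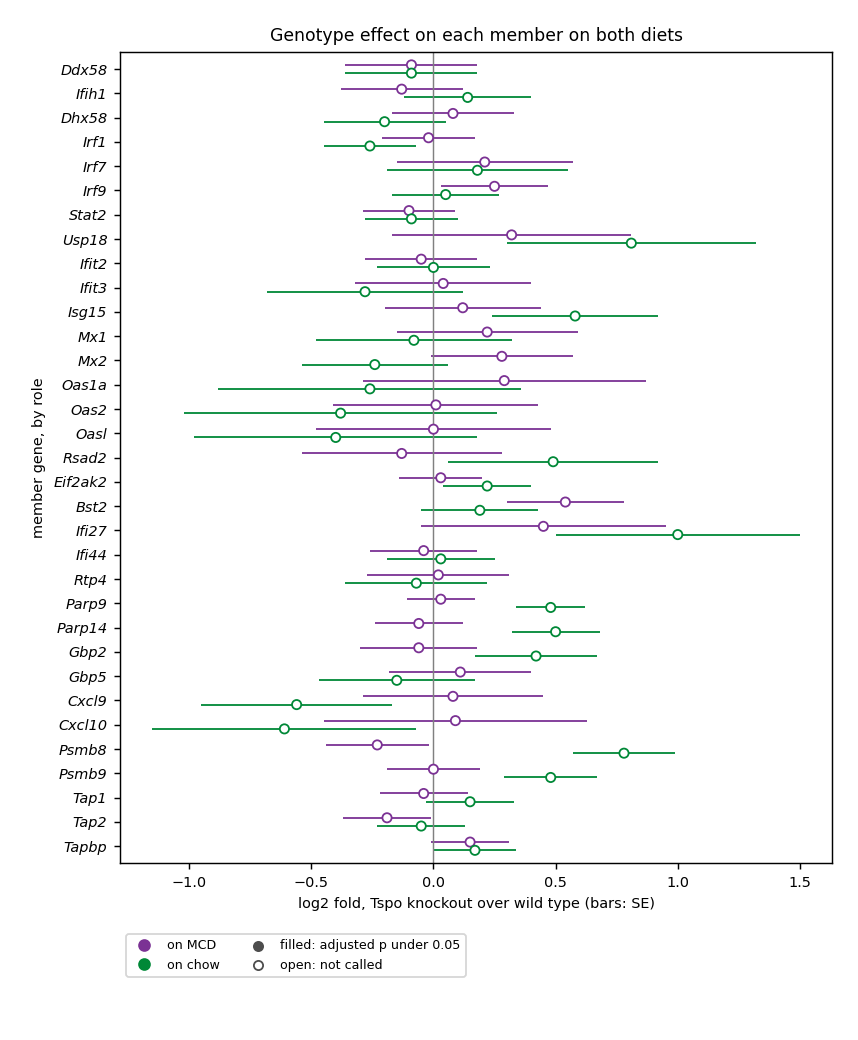
Points are log2 folds of knockout over wild type with SE for the 33 members, on MCD (purple) and on chow (green), and open points did not pass an adjusted p of 0.05, which is all of them. On chow Psmb8 sits at 0.78 and Parp9, Parp14 and Psmb9 at 0.48 to 0.50 with narrow bars, while Ifi27 at 1.00 has a wide bar, and on MCD most points sit near 0.

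The largest chow fold was that of Ifi27, 1.00 ± 0.50 (adjusted p = 0.479), and it came with the 2528 CPM of KO-CHOW 4 against 282 to 803 CPM in the WT-CHOW group. Usp18 was similar, at 0.81 ± 0.51 (adjusted p = 0.533), with 25.8 CPM in KO-CHOW 4 and 1.30 CPM in WT-CHOW 3. Of the 28 genes of MHC class I and peptide loading 26 had a positive fold on chow, with a median of 0.38 against -0.017 for all genes, and 0 were called, with 8 at an unadjusted p under 0.05. RT1-A1 and RT1-A2, classical class I genes whose copies share reads, did not overlap between genotypes, at 0.58 ± 0.21 and 0.52 ± 0.22 (adjusted p = 0.459 and 0.473). Without KO-CHOW 4 and KO-MCD 1 the list had 1 gene at an unadjusted p under 0.05 and a median of 0.21, and without WT-CHOW 4 as well 11 genes, a median of 0.37 and 1 called higher. With library totals alone 18 of the 28 folds were positive and the median was 0.12. Red blood cell markers differed in spread on chow, at 492 to 4790 CPM in KO-CHOW against 1030 to 1536 CPM in WT-CHOW, and their part was not tested.

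The difference of the diet effects asked whether MCD acted differently in the knockout. Again 0 members were called (0% higher and 0% lower among all genes), with 3 at an unadjusted p under 0.05 in edgeR and 0 called by DESeq2 or limma. Without the 3 libraries that stood apart 20 of all genes and 0 members were called. The Psmb8 diet fold was lower in the knockout than in the wild type, by a log2 difference of -1.01 ± 0.30 (adjusted p = 1.00), which did not pass. Parp14 had -0.56 ± 0.25 (adjusted p = 1.00), which was -0.30 without KO-CHOW 4 and KO-MCD 1. On MCD the KO-MCD and WT-MCD means were close, 40.4 ± 7.93 and 47.4 ± 16.3 CPM for Psmb8 and 63.4 ± 14.0 and 66.1 ± 8.67 CPM for Parp14, and the larger gaps were those on chow given above. Each comparison shares samples with the others, so the chow difference and the difference of diet effects are not separate evidence.

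Single libraries carried much of the spread of the members. WT-CHOW 3 was the lowest of its 4 libraries in 25 of the 33 members (75.8%), against 27.4% of all genes, and the highest in 0. Irf7 had 3.76 CPM there, against 14.7 to 22.2 CPM in the other 3 WT-CHOW libraries. Oas1a had 0.144 CPM from 1 count, against 4.93 to 10.6 CPM, and Usp18 had 1.30 CPM from 9 counts, against 6.60 to 12.1 CPM. The lowest values spread over sensors, signalling genes, effectors and the antigen-processing genes Psmb8, Psmb9, Tap1 and Tapbp. Some gaps were smaller, with Psmb8 at 60.1 CPM against 72.1 to 84.1 CPM and Parp9 at 77.1 CPM against 79.5 to 112 CPM. Bst2, at 261 CPM, was not the lowest there. WT-CHOW 3 also had the lowest total of all libraries, 8745756 counts, and the highest position on the second principal component, 43.2, with WT-CHOW 1 next at 38.4. The mean of log2(CPM + 0.5) over the members was 3.60 in WT-CHOW 3 and 4.23 to 4.34 in the other 3 of its group.

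On MCD the libraries were also uneven. KO-MCD 4 was the highest of its group in 19 members (57.6%), against 26.5% of all genes, and the lowest in 0. KO-MCD 1 was the lowest in 18 (54.5%), against 41.0% of all genes, and KO-MCD 3 in 14 (42.4%), against 20.6%. WT-MCD 1 was the lowest in 17 (51.5%), against 24.0%. Oasl shows the spread within KO-MCD, with 8.39 CPM in library 4 and 1.46 CPM in library 1. These shares are descriptions and were not tested.

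**Figure D5:**
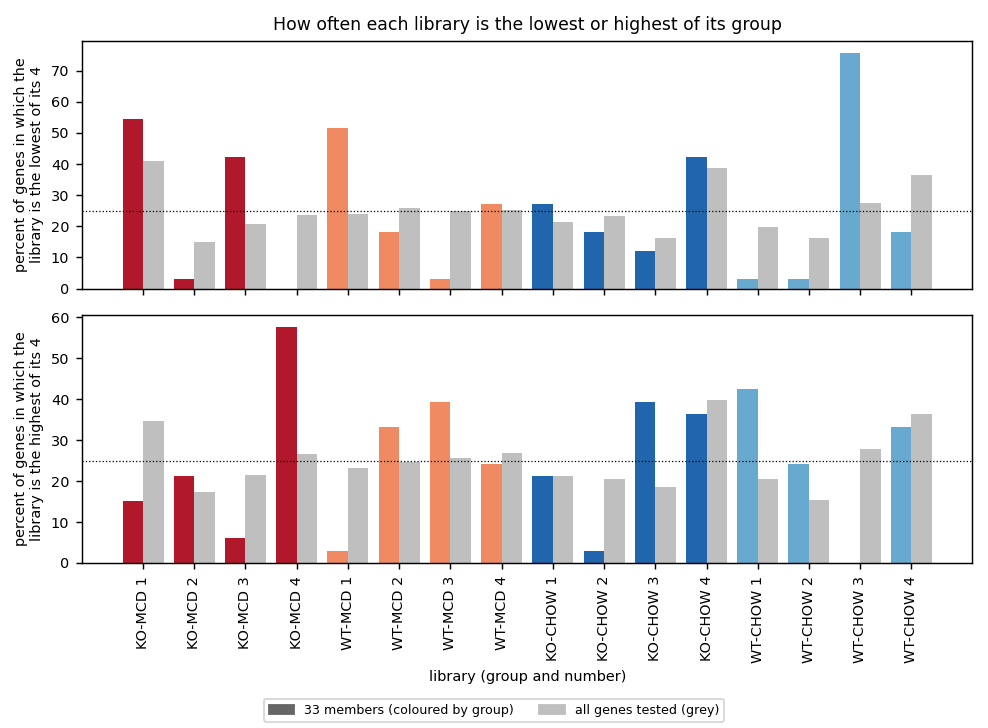
Bars give the percent of genes for which a library is the lowest (upper panel) or highest (lower panel) of the 4 in its group, for the 33 members (coloured) and for all genes tested (grey), with a dotted line at an even share of 25%. WT-CHOW 3 reaches 75.8% of members as the lowest library against 27.4% of all genes, and KO-MCD 4 reaches 57.6% as the highest against 26.5%.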

How the data were processed

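Liver RNA selected for poly(A) was made into libraries with a strand-marking kit, per the labels' protocols. The authors deposited expected counts per gene, which spread ambiguous reads over similar copies. RSEM 1.2.15, Bowtie2 2.1.0 and the build rn6 are listed, without roles, in the submitters' processing notes, and the annotation and the strand setting are not given in them. The authors' second deposited table holds a TMM-scaled signal named CPM. Of its 202017 values above 0, 100.0% were the rounded count multiplied by a constant of the library (relative tolerance 1e-06), and it served limma alternatives only. Of the deposited counts 88.9% were whole.

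Expected counts were first rounded to whole numbers. In R 4.3.3, edgeR 4.0.16 kept 11162 of 17168 genes by filterByExpr (2844 were at 0 throughout), computed TMM factors and fitted the 4 groups over all 16 libraries with robust dispersions. The biological coefficient of variation was 28.0%, with 12 residual degrees of freedom. Contrasts were tested by the robust quasi-likelihood F test, adjusted by Benjamini-Hochberg over all genes in each contrast, and SE was derived from the log2 fold and F. Reads carry no molecular identifiers, so the floor of 3 counts covers counting error only. No library repeated another of its own group, where the chi-square statistic was 15.3 to 384 per gene. Libraries of different groups were not compared in this way. Alternatives used DESeq2 1.42.0, limma 3.58.1, other scalings, no filter, a replicate block and left-out libraries. The procedure was tested on simulated counts.

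Members, lists, markers and tests were chosen with earlier results of these data known, and lists are described by counts and medians. Values in every library were given for up to 6 called members per direction and contrast by smallest p (2 where none was called). Other members were described by role after their values were seen. List genes named are among the 3 with the smallest p in their list, apart from Psmb5, Psmb6, Psmb7, Calr, Pdia3 and the RT1 genes. Those were chosen after their values were seen.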

Additional observations from a re-analysis of the deposited data

Results flagged for a closer look

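In 10 of 132 groups of 4 libraries (7.58%) 1 library lay far from the other 3, by Dixon's 95% critical value for its gap as a share of the group's range, which chance passes in about 1 in 20 groups. In KO-CHOW 4, which stands apart across genes and holds Tspo at a wild-type level, Ifi27 was at 2528 CPM (453 to 554 in the other 3) and Usp18 at 25.8 CPM (7.50 to 9.11), while Mx2 was at 12.4 CPM (22.5 to 23.7) and Oas2 at 0 CPM (0.297 to 0.341, all from 3 counts). In KO-CHOW 3 Cxcl10 was at 8.91 CPM (1.61 to 2.73 in the others) and Gbp2 at 21.7 CPM (10.4 to 11.7). In KO-MCD 1, the other library labelled knockout with high Tspo, Ifi27 was at 329 CPM (116 to 147) and Ifit2 at 28.1 CPM (44.3 to 45.6). Mx1 was at 1.73 CPM in WT-CHOW 3 (5.19 to 5.90), and Rsad2 at 7.42 CPM in WT-CHOW 4 (2.75 to 3.35).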

How the results depend on the processing

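The counts of members called between diets moved as follows. Higher in the wild type (2) became 1 with the replicate block, 5 without WT-CHOW 4, KO-CHOW 4 and KO-MCD 1, 11 with library totals alone, and 1 to 3 with single libraries left out (1 without WT-MCD 2, 3 or 4 or WT-CHOW 3). Lower in the wild type (5) became 3 with the block, 9 without those 3 libraries, 9 without KO-CHOW 4 and KO-MCD 1, 2 with library totals, and 3 to 8 with single libraries left out (3 without WT-MCD 1 or 4 or WT-CHOW 1 or 2, and 8 without KO-MCD 1). Higher in the knockout (3) became 5 without the 3 libraries, 15 with library totals and 2 to 5 with single libraries left out (5 without KO-MCD 1). Lower in the knockout (7) became 4 with library totals and 6 to 8 with single libraries left out. In the knockout, Ifi44 and Parp14 reversed to 0.08 each with library totals, whose construction moves the median gene. The number of all genes called moved with them, in the wild type to 32.7% with the block, 50.5% without the 3 libraries, 45.9% without KO-CHOW 4 and KO-MCD 1 and 47.6% with library totals. The other causes were not tested. Counts for knockout over wild type and for the difference of diet effects were 0 in every alternative run.

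Replicate numbers showed no general pairing: deviations of same-numbered libraries correlated at -0.32 to 0.51, and 4 of 16 pairs correlated best with their own number. The 0.51 was that of KO-CHOW 4 with WT-CHOW 4, both among the libraries that stood apart. A shared origin of libraries with the same number is not stated in the labels and was not tested. The replicate block left 3 members higher and 7 lower in the knockout. Upper quartile factors moved the median gene to 0.148 in the knockout. Oas2 in the knockout was not tested in the fit of the 8 knockout libraries alone, for it did not pass the filter there. Depth limits Oas2, with 0 to 3 reads per library in KO-CHOW, and the interferon genes.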
